A study of Mus musculus with 12 samples.

Results

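Ribosome biogenesis factors are the proteins that transcribe, process, modify and fold ribosomal RNA and assemble it with ribosomal proteins. A list of 53 such mouse genes was followed, of 18193 genes with a probe set of their own on an Affymetrix mouse genome array of 45101 probe sets. Each gene was represented by the probe set mapped to its symbol alone with the highest mean log2 signal over 12 arrays. By this rule 52 genes were measured, and Mrto4, a large-subunit assembly factor, had no probe set of its own. The cells were B220+ splenic B cells of C57BL/6 mice with the transgene Tg(IghelMD4)4Ccg, which gives B cells an antigen receptor for hen egg lysozyme (HEL). They were purified with magnetic beads and stimulated with anti-CD40, IL21 and HEL, so all groups share the transgene and the stimulation. Labels mark cells as depleted of Jmjd2a (Kdm4a) or of Jmjd2c (Kdm4c), which are histone demethylases, and the control cells carried a control construct. The groups were Jmjd2a, Jmjd2c and control at day 3 and Jmjd2a, Jmjd2c and control at day 1, with 2 arrays each. The labels name siRNA in one field and shRNA virus in another. Titles call the replicates biological without naming separate cultures or animals, and both day 3 controls carry the same sample code in their descriptions although their arrays hold different values. So the p-values measure only the spread between these arrays. That spread was pooled over the 6 groups, although it was largest in day 3 controls. Over all probe sets the root mean square SD was 0.259 there and 0.115 to 0.157 in the other groups. P-values and SEs of comparisons with day 3 controls therefore rest on a spread smaller than this group's, taken over all probe sets.

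In the nucleolus, RNA polymerase I transcribes a long precursor of ribosomal RNA. Small nucleolar ribonucleoproteins (snoRNPs) guide its chemical modification and first cuts, and separate sets of factors then shape the small and the large subunit before export to the cytoplasm. B cells that are activated grow and divide, and enlarged nucleoli are a classical feature of such blasts. Many genes of this pathway are known targets of the transcription factor Myc, which binds the letters CACGTG, called an E-box.

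Neither targeted gene fell past the test with its own label. Kdm4a differed by -0.12 at day 3 (limma adjusted p = 0.36) and by 0.11 at day 1 (adjusted p = 0.62) between Jmjd2a and control arrays, and Kdm4c by 0.03 at day 3 (adjusted p = 0.91) and 0.19 at day 1 (adjusted p = 0.41) between Jmjd2c and control arrays. The groups are therefore called by their labels throughout. Array medians lay between 5.2 and 5.26 log2 units. The 7 measured B cell markers averaged 9.42 to 9.46 on labelled arrays and 9.54 and 9.68 on control arrays at day 3. At day 1 they averaged 10.14 to 10.55 on labelled arrays and 9.35 and 9.39 on control arrays. There 5 of the 7 rose with the Jmjd2a label and 6 with the Jmjd2c label (medians 1.06 and 1.43). Control replicate 2 of day 3 stood apart, with an interquartile range of 3.08 against 3.38 to 3.63 on the other arrays and 18S ribosomal RNA probe sets at 10.73 against 11.73 to 12.73. Counts of members and of pathway, ribosomal protein and replication lists are given with and without it in comparisons that use it. Counts of cell type markers are given with all arrays only. Named genes are given without it where its absence ends a call, changes a rank or moves a value by over 1.5 times. Fits without this array leave the day 3 controls 1 array and no spread of their own. P-values and counts of such fits rest on the other groups, whose spread was smaller over all probe sets.

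Because the measured members moved in one direction at day 3, with 1 exception, their promoters were searched for CACGTG, which reads alike on both strands. RefSeq windows of the build GRCm38.p6, from 250 bases before to 50 bases after a transcript start, were at hand for 47 of the 53 members. The motif was present in 10 of them (21.3%), against 14 of 76 other ribosome biogenesis genes (18.4%) and 2187 of 27025 genes in all (8.09%). Between bases 1 and 45 after the start it began in 8 members (17%), against 5 of the other ribosome biogenesis genes (6.6%) and 347 of all genes (1.28%). The start is that of the table's window, which for 18 of the 47 members, Wdr43 and Grwd1 among them, lies inside the annotated gene, so positions from the annotated start differ there. The windows were not matched for base composition, and a match is a description of the letters, not a bound site. The 10 members were Imp4, Nop2, Grwd1, Ltv1, Utp20, Pes1, Pno1, Mybbp1a, Tsr1 and Wdr43. Fbl, Rrp12, Bop1, Npm1, Dcaf13 and Rrs1 had no entry in the table used. The windows of 36 measured members lack the motif, and all of these but Polr1c rose with the labels at day 3. Whether the motif bears on the direction was not tested. Shown, with the motif in capitals, are 180 bases (150 before the start to 30 after) of Polr1c and 5 members with the motif there. They lie, on GRCm38.p6, at chr11:3963825-3964004 (+ strand, Pes1), chr17:71616065-71616244 (+, Wdr43), chr11:74897930-74898109 (+, Tsr1), chr6:125131733-125131912 (+, Nop2), chr1:34439679-34439858 (+, Imp4) and chr17:46248016-46248195 (- strand, Polr1c).
Pes1: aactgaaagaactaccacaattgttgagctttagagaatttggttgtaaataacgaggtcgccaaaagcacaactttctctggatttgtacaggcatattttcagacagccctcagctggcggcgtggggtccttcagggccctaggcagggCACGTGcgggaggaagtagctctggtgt
Wdr43: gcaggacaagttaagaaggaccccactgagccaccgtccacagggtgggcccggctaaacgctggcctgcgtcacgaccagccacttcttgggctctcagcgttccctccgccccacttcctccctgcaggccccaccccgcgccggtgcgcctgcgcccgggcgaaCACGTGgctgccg
Tsr1: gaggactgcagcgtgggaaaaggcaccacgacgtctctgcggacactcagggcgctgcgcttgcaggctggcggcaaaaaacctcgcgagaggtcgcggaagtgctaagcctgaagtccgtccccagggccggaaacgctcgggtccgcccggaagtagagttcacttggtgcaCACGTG
Nop2: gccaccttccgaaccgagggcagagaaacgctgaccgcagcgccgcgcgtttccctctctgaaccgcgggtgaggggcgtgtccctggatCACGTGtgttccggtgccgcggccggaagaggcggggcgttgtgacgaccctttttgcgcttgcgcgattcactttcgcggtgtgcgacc
Imp4: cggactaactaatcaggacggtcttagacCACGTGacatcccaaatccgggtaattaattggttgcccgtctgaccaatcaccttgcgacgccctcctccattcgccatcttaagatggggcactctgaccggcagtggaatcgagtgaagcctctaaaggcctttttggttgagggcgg
Polr1c: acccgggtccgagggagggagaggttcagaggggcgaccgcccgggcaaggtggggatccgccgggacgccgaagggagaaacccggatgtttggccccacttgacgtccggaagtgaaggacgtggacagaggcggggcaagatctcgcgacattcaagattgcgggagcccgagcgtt
Counted from the window's start base, the motif began at base 3 in Pes1, 18 in Wdr43, 25 in Tsr1, -60 in Nop2 and -121 in Imp4. Members with the motif had a median log2 difference of -0.87 between day 3 and day 1 controls (10 members, from -1.30 to -0.55). Members without it had a median of -0.78 (36 members, from -1.11 to 0.41).

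The members ran through the groups in a common order. Averaged over the 52 members, with each gene centred on its own mean, the log2 signal was 0.16 and 0.18 on the Jmjd2a arrays of day 3. It was 0.12 and 0.16 on the Jmjd2c arrays and -0.49 and -0.55 on the control arrays of that day. At day 1 it was -0.03 and 0.00 with the Jmjd2a label, -0.00 and -0.07 with the Jmjd2c label and 0.24 and 0.27 in controls. The control arrays thus stood at both ends, lowest at day 3 and highest at day 1, and no other array overlapped either pair. By group means, 45 of 52 members were highest in day 1 controls and lowest in day 3 controls. Nop14, Polr1a, Ddx21 and Grwd1 were highest with the Jmjd2a label at day 3 and lowest in day 3 controls. Npm1 and Noc4l were highest in day 1 controls and lowest with the Jmjd2c label at day 1, and Polr1c was highest in day 3 controls. The mean signals of the member probe sets, between 8.46 and 13.52 (84.4th to 99.6th percentile of all probe sets), rank probe sets and not transcripts.

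**Figure D1:**
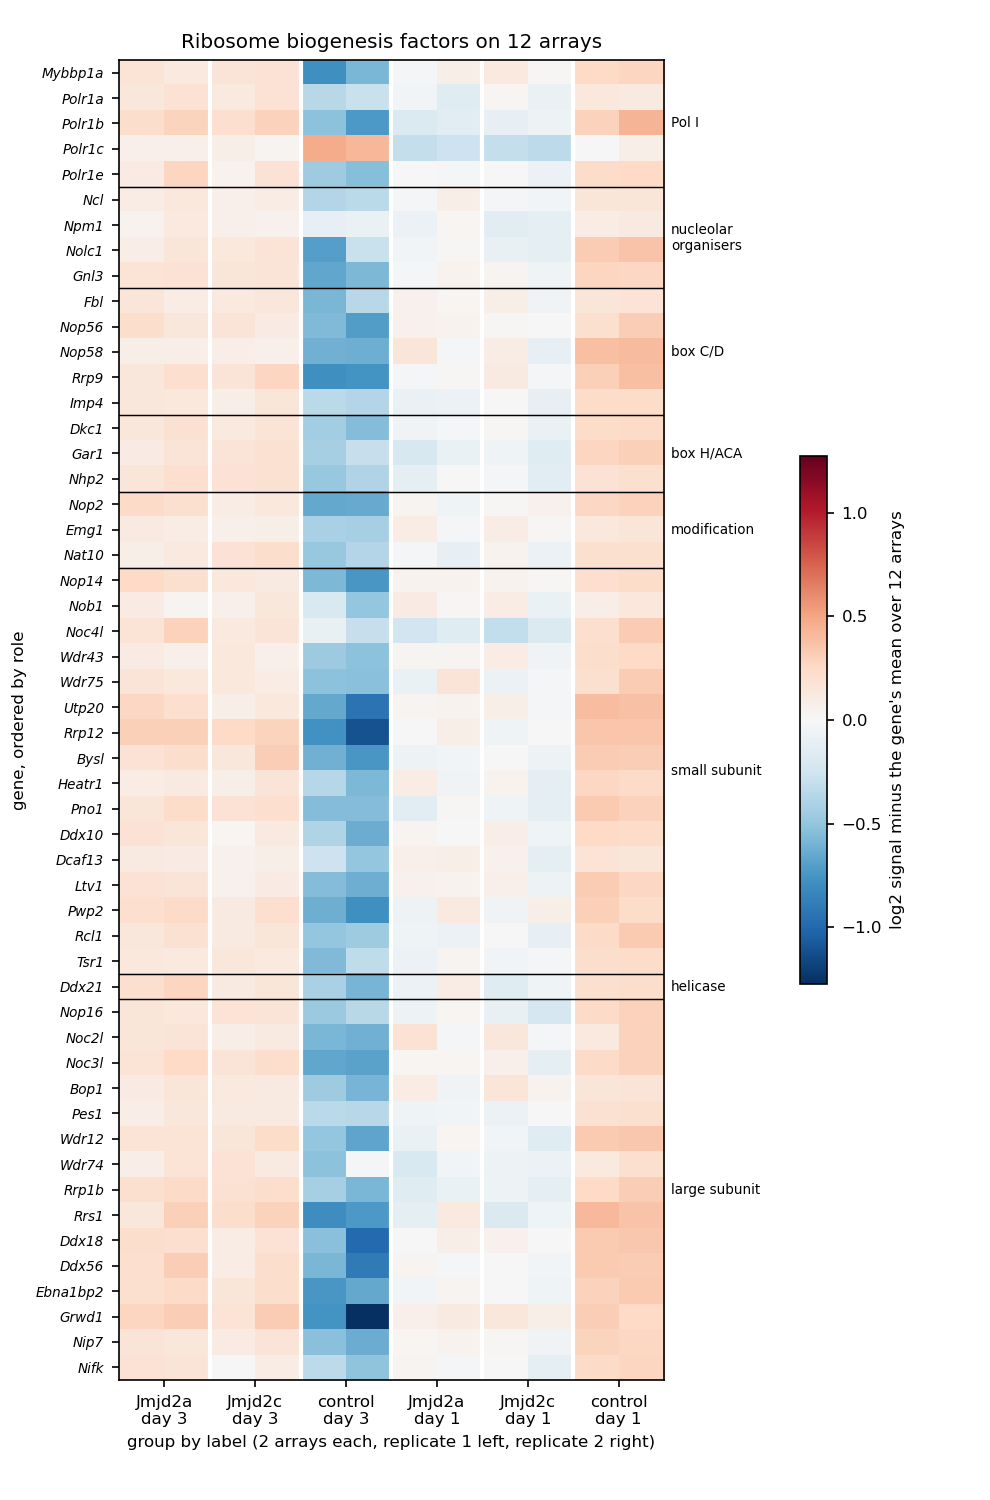
Log2 signal of 52 ribosome biogenesis genes (rows, ordered by role) on 12 arrays (columns, 2 per group), each gene minus its mean over the arrays, with red above and blue below that mean. Nearly every row is darkest blue in the day 3 controls and red in the day 1 controls, and Polr1c runs the other way in the day 3 controls.

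At day 3, 51 of 52 members were higher on Jmjd2a than on control arrays and 1 was lower, with a median log2 difference of 0.68. Of all 45037 probe sets tested, 13.7% rose and 7.11% fell, with a median of -0.04. Among the 7023 probe sets at least as bright as the dimmest member 36.0% rose and 13.4% fell, with a median of 0.13. The Jmjd2c arrays gave 51 higher and 1 lower member with a median of 0.65, where 9.28% of all probe sets rose and 5.04% fell (29.5% and 13.8% of the bright ones). The lower member was Polr1c in both. Both labels are set against the same control arrays, so their counts are not independent. Without control replicate 2, 50 members were higher and 1 lower for each label, with a median of 0.67 for each. Nob1 (0.27, adjusted p = 0.055) then did not pass for Jmjd2a, and Noc4l (0.24, adjusted p = 0.074) for Jmjd2c. When each array in turn was left out, 48 to 52 members passed for Jmjd2a and 48 to 51 for Jmjd2c. Nob1, Noc4l, Npm1 and Wdr74 were the members that lost the call at least once.

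Between days, controls fell. At day 3, 51 of 52 members were lower in control arrays than at day 1 and Polr1c was higher, with a median of -0.78. Over all probe sets 15.4% were lower and 8.46% higher, with a median of 0.04, and among the bright ones 39.1% were lower and 16.1% higher, with a median of -0.14. The fall was at least 2-fold in 9 members. Without control replicate 2 of day 3, 51 members were lower and 1 higher, with a median of -0.78.

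At day 1 both labels stood below control by smaller amounts. All 52 members had a negative difference for both labels. For Jmjd2a 26 passed, with a median of -0.26 (3.25% of all probe sets were lower and 4.23% higher, and 13.7% and 9.26% of the bright ones). For Jmjd2c 33 passed, with a median of -0.28 (5.69% lower and 5.32% higher, and 21.6% and 11.5% of the bright ones). No member was at 2-fold. These counts depend on single arrays. For Jmjd2a 2 members passed without control replicate 2 of day 1, 8 without control replicate 1, 8 without Jmjd2a replicate 1 and 43 without either control array of day 3. For Jmjd2c 13 passed without control replicate 2 of day 1, 15 without control replicate 1, 16 without Jmjd2c replicate 2 and 46 without either control array of day 3. The calls that held whichever array was left out were Gar1 and Pno1 for Jmjd2a. For Jmjd2c they were Ebna1bp2, Gar1, Noc4l, Nop16, Nop58, Npm1, Pno1, Polr1c, Rrs1 and Wdr12. Under all settings run the median difference was -0.29 to -0.25 for Jmjd2a and -0.32 to -0.25 for Jmjd2c.

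**Figure D2:**
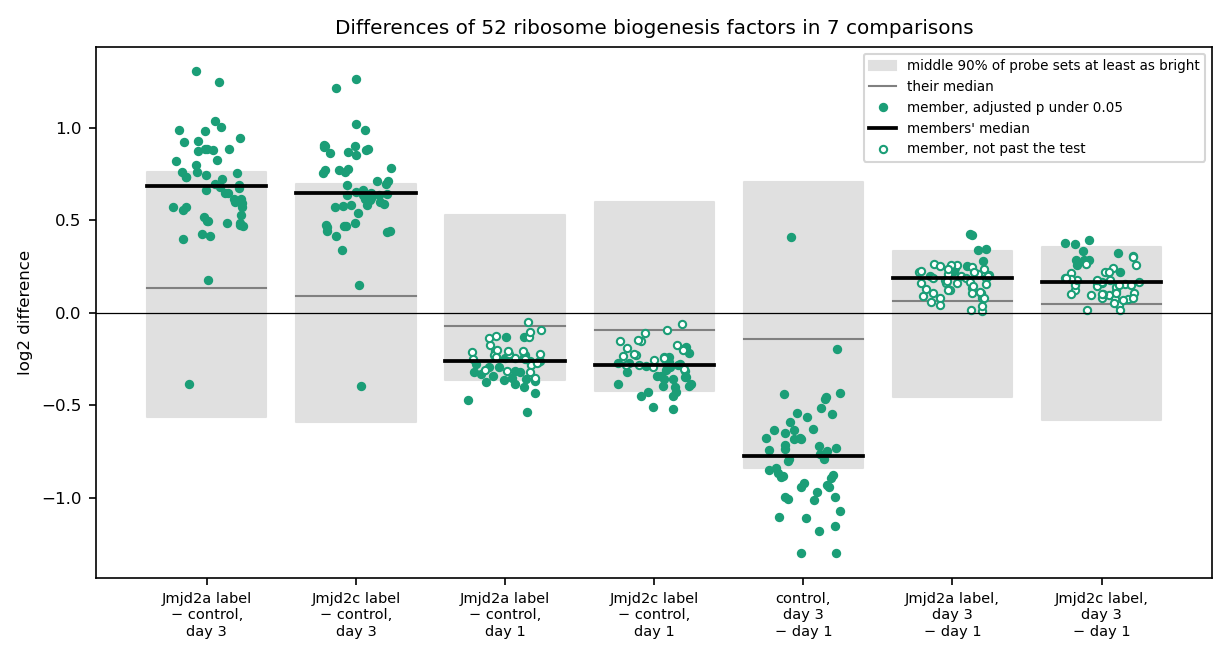
Log2 difference (vertical axis) of each of 52 members (points, filled where the adjusted p is under 0.05) in 7 comparisons, with the members' median as a black line. Grey boxes span the middle 90% of the 7023 probe sets at least as bright as the dimmest member, with their median as a grey line, and the members lie mostly above it at day 3 and below it in the control comparison between days.

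Signs of other cells moved with these differences. The 11 macrophage markers averaged 6.11 and 6.02 (Jmjd2a), 6.20 and 6.02 (Jmjd2c) and 7.26 and 7.14 (control) at day 3. At day 1 they averaged 8.26 and 8.61 (Jmjd2a), 8.14 and 9.32 (Jmjd2c) and 5.31 and 5.29 (control). At day 3, 7 of the 11 fell with the Jmjd2a label and 6 with the Jmjd2c label, at day 1 all 11 rose with both, and 9 rose between days in controls. The 6 measured NK cell markers averaged 6.31 and 6.28 (Jmjd2a), 6.52 and 6.34 (Jmjd2c) and 7.77 and 7.81 (control) at day 3. At day 1 they averaged 6.72 and 6.29 (Jmjd2a), 6.73 and 6.68 (Jmjd2c) and 5.27 and 5.42 (control). Of these, 5 fell with each label at day 3, 3 (Jmjd2a) and 4 (Jmjd2c) rose at day 1 and 5 rose between days in controls. The 7 measured neutrophil markers averaged 4.999 to 5.16 on labelled arrays and 5.75 and 5.67 on control arrays at day 3. At day 1 they averaged 5.35 and 7.403 (Jmjd2a), 5.401 and 8.05 (Jmjd2c) and 4.62 and 4.67 (control), so replicate 2 of each label stood apart. The 3 measured erythroid markers averaged 5.34 to 5.62 on labelled arrays of day 1, and 3.93 to 4.26 on labelled arrays of day 3 and 3.99 to 4.09 on control arrays of both days. The 6 plasma cell markers averaged 10.40 to 10.49 on labelled arrays and 10.74 and 10.63 on control arrays at day 3. At day 1 they averaged 10.43 to 10.67 (labelled) and 10.27 and 10.30 (control). The 6 measured T cell markers averaged 5.66 to 5.76 (labelled) and 5.82 and 5.91 (control) at day 3. At day 1 they averaged 5.80 to 5.95 (labelled) and 5.495 and 5.585 (control). The B cell, macrophage, NK cell, neutrophil, plasma cell and T cell lists were all lowest in day 1 controls, where the members were highest. The erythroid list was not. NK markers were thus highest where the members were lowest, in day 3 controls, whereas macrophage markers were highest with the labels at day 1. The part of these cells in the members' differences was not tested, and in bulk RNA fewer cells of a type and less RNA per cell cannot be told apart.

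RNA polymerase I and its helpers contained both the pattern and its exception. Polr1a, the largest subunit, read 8.73 and 8.78 (Jmjd2a), 8.71 and 8.77 (Jmjd2c) and 8.23 and 8.30 (control) at day 3. At day 1 it read 8.56 and 8.44 (Jmjd2a), 8.61 and 8.50 (Jmjd2c) and 8.72 and 8.70 (control). At day 3 the control arrays lay below all labelled arrays, by 0.48 ± 0.083 for Jmjd2a (SE, limma adjusted p = 0.0014) and 0.47 ± 0.083 for Jmjd2c (adjusted p = 0.0021). At day 1 the differences of -0.21 for Jmjd2a (95% interval -0.40 to -0.03, adjusted p = 0.17) and -0.15 for Jmjd2c (-0.33 to 0.03, adjusted p = 0.33) did not pass. Another Polr1a probe set of mean signal 8.33, against 8.59, gave the opposite calls. It differed by 0.07 for Jmjd2a (adjusted p = 0.66) and 0.11 for Jmjd2c (adjusted p = 0.59) at day 3, and by -0.40 for Jmjd2a (adjusted p = 0.035) and -0.63 for Jmjd2c (adjusted p = 0.0021) at day 1. Polr1b, the other large subunit, read 8.70 and 8.76 (Jmjd2a), 8.69 and 8.77 (Jmjd2c) and 7.96 and 7.74 (control) at day 3, and 8.29 and 8.33 (Jmjd2a), 8.37 and 8.41 (Jmjd2c) and 8.77 and 8.91 (control) at day 1. It was 1.84-fold higher with either label at day 3 (adjusted p = 5.4e-05 for Jmjd2a and 6.6e-05 for Jmjd2c). Its fall of 0.53 with the Jmjd2a label at day 1 was the largest of any member in that comparison (adjusted p = 0.0047). Polr1e, another subunit of the enzyme, and Mybbp1a, a nucleolar partner of Myb and of RNA polymerase I, rose by 0.69 and 0.83 with the Jmjd2a label and by 0.62 and 0.86 with the Jmjd2c label at day 3.

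Polr1c, a subunit shared by RNA polymerases I and III, moved against the other members in the day 3 comparisons with control and between days in controls, and with them at day 1 and between days within each label. It read 10.62 and 10.63 (Jmjd2a), 10.63 and 10.59 (Jmjd2c) and 11.03 and 10.98 (control) at day 3, and 10.26 and 10.29 (Jmjd2a), 10.26 and 10.22 (Jmjd2c) and 10.56 and 10.63 (control) at day 1. The control arrays were above the labelled arrays of the same day at both days, without overlap. At day 3 the difference was -0.39 ± 0.053 for Jmjd2a (adjusted p = 0.00035) and -0.40 ± 0.053 for Jmjd2c (adjusted p = 0.00034). At day 1 it was -0.32 ± 0.053 for Jmjd2a (adjusted p = 0.0033) and -0.36 ± 0.053 for Jmjd2c (adjusted p = 0.0012). In controls it was higher at day 3 than at day 1 by 0.41 ± 0.053 (adjusted p = 0.00014). Another Polr1c probe set gave -0.29 (Jmjd2a) and -0.34 (Jmjd2c) at day 3, -0.28 (Jmjd2a) and -0.30 (Jmjd2c) at day 1, and 0.40 in controls between days, each past the test. Polr1d, the partner of Polr1c in both enzymes and no member of the list, was lower in day 3 than in day 1 controls by 0.19 (adjusted p = 0.005). Over the 12 arrays Polr1c had a Pearson r of -0.48 with the members' mean, against 0.70 for Noc4l, the next lowest member.

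Among the nucleolar organisers the size of the change varied most between Npm1 and Gnl3. Ncl (nucleolin), an abundant RNA-binding protein of the nucleolus, read 13.35 and 13.39 (Jmjd2a), 13.32 and 13.36 (Jmjd2c) and 12.88 and 12.92 (control) at day 3, and 13.24 and 13.33 (Jmjd2a), 13.24 and 13.22 (Jmjd2c) and 13.41 and 13.41 (control) at day 1. The day 3 controls were lowest and the day 1 controls highest, each without overlap. Ncl was higher by 0.48 ± 0.034 with the Jmjd2a label (adjusted p = 4.1e-06) and by 0.44 ± 0.034 with the Jmjd2c label (adjusted p = 7.8e-06) at day 3. Its other probe sets at 11.9 and 9.91 gave falls of 0.75 and 1.28 between days in controls, against 0.51 by the brightest one. Npm1 (nucleophosmin), a nucleolar chaperone, read 13.57 and 13.65 (Jmjd2a), 13.59 and 13.58 (Jmjd2c) and 13.42 and 13.44 (control) at day 3, and 13.45 and 13.54 (Jmjd2a), 13.39 and 13.40 (Jmjd2c) and 13.62 and 13.64 (control) at day 1. Its changes were small, 1.13-fold (Jmjd2a) and 1.11-fold (Jmjd2c) higher at day 3 (adjusted p = 0.004 and 0.012) and 12.8% lower in day 3 than in day 1 controls (adjusted p = 0.0015). Gnl3 (nucleostemin), a nucleolar GTPase, read 11.42 and 11.43 (Jmjd2a), 11.39 and 11.40 (Jmjd2c) and 10.57 and 10.67 (control) at day 3, and 11.23 and 11.28 (Jmjd2a), 11.28 and 11.20 (Jmjd2c) and 11.52 and 11.51 (control) at day 1. Its rise of 0.80 ± 0.051 (Jmjd2a) and 0.77 ± 0.051 (Jmjd2c) at day 3 was among the most secure by p (adjusted p = 2.1e-06 and 3.1e-06). Nolc1, a chaperone of snoRNPs, rose by 0.61 (Jmjd2a) and 0.65 (Jmjd2c) at day 3, with control arrays at 10.05 and 10.48.

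**Figure D3:**
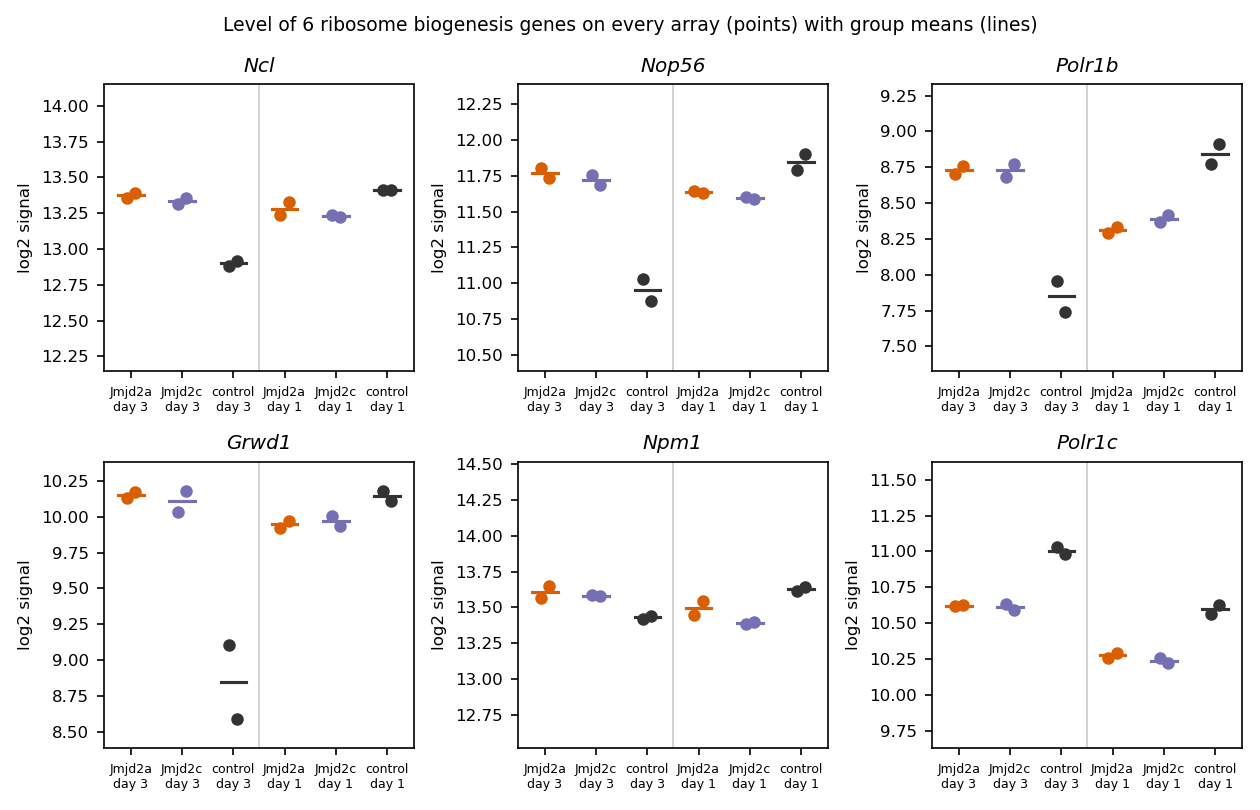
Log2 signal (vertical axis) of Ncl, Nop56, Polr1b, Grwd1, Npm1 and Polr1c on every array (points, 2 per group) with the group mean as a line, day 3 groups left of day 1 groups. Day 3 controls lie lowest in Ncl, Nop56, Polr1b and Grwd1 and highest in Polr1c, and Npm1 varies least.

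The box C/D snoRNP, which places methyl groups on ribosomal RNA, was lower in day 3 controls in all of its members. Among the 7023 bright probe sets 39.1% were lower there than at day 1. Fbl (fibrillarin), the methyltransferase, read 12.60 and 12.54 (Jmjd2a), 12.57 and 12.59 (Jmjd2c) and 11.87 and 12.10 (control) at day 3, and 12.51 and 12.48 (Jmjd2a), 12.52 and 12.41 (Jmjd2c) and 12.61 and 12.63 (control) at day 1. Nop56, a core protein of the particle, read 11.81 and 11.73 (Jmjd2a), 11.75 and 11.69 (Jmjd2c) and 11.03 and 10.87 (control) at day 3, and 11.64 and 11.63 (Jmjd2a), 11.60 and 11.59 (Jmjd2c) and 11.79 and 11.90 (control) at day 1. In both genes the day 3 controls lay below all other arrays. Fbl rose by 0.59 ± 0.063 (Jmjd2a) and 0.60 ± 0.063 (Jmjd2c) at day 3 (adjusted p = 5.3e-05 and 5.8e-05), and Nop56 by 0.82 ± 0.059 (Jmjd2a) and 0.77 ± 0.059 (Jmjd2c) (adjusted p = 4.1e-06 and 7.1e-06). Fbl differed by -0.12 for Jmjd2a (-0.26 to 0.01, adjusted p = 0.33) and -0.15 for Jmjd2c (-0.29 to -0.02, adjusted p = 0.17) at day 1, which did not pass. Nop58, another core protein, rose by 0.70 (Jmjd2a) and 0.69 (Jmjd2c) at day 3 and fell by 0.33 (Jmjd2a) and 0.40 (Jmjd2c) at day 1. Rrp9, a protein of the U3 particle that guides the first cuts, rose by 0.95 (Jmjd2a) and 0.99 (Jmjd2c) at day 3, and Imp4, which helps U3 pair with the precursor, by 0.50 (Jmjd2a) and 0.47 (Jmjd2c).

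The box H/ACA snoRNP converts uridine to pseudouridine, and its members passed in each comparison with control. Among the 7023 bright probe sets 36.0% (Jmjd2a) and 29.5% (Jmjd2c) were higher at day 3. At day 1, 13.7% (Jmjd2a) and 21.6% (Jmjd2c) of them were lower. Dkc1 (dyskerin), the pseudouridine synthase, read 11.71 and 11.77 (Jmjd2a), 11.69 and 11.74 (Jmjd2c) and 11.13 and 11.02 (control) at day 3, and 11.53 and 11.55 (Jmjd2a), 11.59 and 11.49 (Jmjd2c) and 11.80 and 11.82 (control) at day 1. No array of the labelled groups overlapped the controls of its day. Dkc1 rose by 0.67 ± 0.052 (Jmjd2a) and 0.65 ± 0.052 (Jmjd2c) at day 3 (adjusted p = 6.6e-06 and 1e-05) and fell by 0.27 ± 0.052 with each label at day 1 (adjusted p = 0.0073 and 0.0057). Gar1, a core protein of the particle, fell by 25.9% with the Jmjd2a label at day 1 (adjusted p = 0.0014, the smallest of any member there) and by 24.1% with the Jmjd2c label. It rose by 0.50 (Jmjd2a) and 0.54 (Jmjd2c) at day 3, and Nhp2, the RNA-binding core protein, by 0.62 with each label. Among other enzymes that modify ribosomal RNA, Nop2, a cytosine methyltransferase, rose by 0.87 (Jmjd2a) and 0.76 (Jmjd2c) at day 3. Nat10, a cytidine acetyltransferase, rose by 0.53 (Jmjd2a) and 0.64 (Jmjd2c), and Emg1, a pseudouridine methyltransferase, by 0.52 (Jmjd2a) and 0.49 (Jmjd2c).

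All 16 small-subunit factors were higher with both labels at day 3, by medians of 0.68 (Jmjd2a) and 0.63 (Jmjd2c). All 16 were lower in day 3 than in day 1 controls. Among the 7023 bright probe sets 36.0% (Jmjd2a) and 29.5% (Jmjd2c) were higher at day 3, and 39.1% were lower between days in controls. Rrp12, a factor for export and late maturation, read 9.23 and 9.24 (Jmjd2a), 9.19 and 9.22 (Jmjd2c) and 8.16 and 7.82 (control) at day 3, and 8.94 and 9.002 (Jmjd2a), 8.88 and 8.92 (Jmjd2c) and 9.29 and 9.29 (control) at day 1. It was 2.37-fold (Jmjd2a) and 2.32-fold (Jmjd2c) higher at day 3 (adjusted p = 7.1e-06 and 1.1e-05) and 59.3% lower in day 3 than in day 1 controls (adjusted p = 2.5e-06). Noc4l, a partner of Nop14 in the early particle, read 9.88 and 10.00 (Jmjd2a), 9.84 and 9.87 (Jmjd2c) and 9.62 and 9.42 (control) at day 3, and 9.46 and 9.56 (Jmjd2a), 9.40 and 9.52 (Jmjd2c) and 9.93 and 10.04 (control) at day 1. Its labelled arrays of day 1 lay in the range of the day 3 controls or close to it, and its differences at day 1 were -0.47 ± 0.086 for Jmjd2a (adjusted p = 0.0059) and -0.52 ± 0.086 for Jmjd2c (adjusted p = 0.0023). At day 3 Noc4l rose by 0.42 ± 0.086 (Jmjd2a) and 0.34 ± 0.086 (Jmjd2c) (adjusted p = 0.0042 and 0.02). Nob1, the nuclease that makes the last cut of 18S ribosomal RNA, read 9.18 and 9.11 (Jmjd2a), 9.14 and 9.22 (Jmjd2c) and 8.88 and 8.59 (control) at day 3, and 9.18 and 9.09 (Jmjd2a), 9.17 and 8.99 (Jmjd2c) and 9.16 and 9.21 (control) at day 1. At day 1 its arrays overlapped between groups, with differences of -0.05 for Jmjd2a (-0.27 to 0.17, adjusted p = 0.88) and -0.11 for Jmjd2c (-0.33 to 0.11, adjusted p = 0.66).

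Other small-subunit factors gave a wide range. Utp20 and Heatr1, large scaffold proteins of the early particle, rose by 1.04 and 0.57 with the Jmjd2a label and by 0.90 and 0.58 with the Jmjd2c label at day 3. Wdr43, Wdr75, Pwp2 and Dcaf13, scaffold proteins with WD repeats, rose by 0.48 to 0.93 with the Jmjd2a label and by 0.44 to 0.86 with the Jmjd2c label. Pno1, the partner of Nob1, rose by 0.75 (Jmjd2a) and 0.76 (Jmjd2c) at day 3 and fell by 0.38 (Jmjd2a) and 0.40 (Jmjd2c) at day 1 (adjusted p = 0.0027 and 0.0015). Bysl (bystin), Ltv1 and Tsr1, factors of later particles, rose by 0.89, 0.76 and 0.57 with the Jmjd2a label and by 0.91, 0.67 and 0.58 with the Jmjd2c label. Nop14, an early factor, Rcl1, a protein of the early particle, and Ddx10, a helicase, rose by 0.88, 0.65 and 0.68 with the Jmjd2a label and by 0.78, 0.61 and 0.57 with the Jmjd2c label. Ddx21, a helicase that acts in transcription of ribosomal RNA and in its processing, rose by 0.74 (Jmjd2a) and 0.64 (Jmjd2c).

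The 15 measured large-subunit factors were all higher with both labels at day 3, by medians of 0.76 (Jmjd2a) and 0.72 (Jmjd2c). All were lower in day 3 than in day 1 controls, by a median of -0.85. The shares of bright probe sets were again 36.0% (Jmjd2a), 29.5% (Jmjd2c) and, between days in controls, 39.1%. Pes1, Bop1 and Wdr12 form the PeBoW complex, which is needed for the large subunit's ribosomal RNA. Pes1 read 10.33 and 10.39 (Jmjd2a), 10.35 and 10.35 (Jmjd2c) and 9.90 and 9.88 (control) at day 3, and 10.18 and 10.21 (Jmjd2a), 10.17 and 10.23 (Jmjd2c) and 10.43 and 10.44 (control) at day 1. Bop1 read 8.88 and 8.92 (Jmjd2a), 8.89 and 8.88 (Jmjd2c) and 8.32 and 8.18 (control) at day 3, and 8.87 and 8.72 (Jmjd2a), 8.93 and 8.82 (Jmjd2c) and 8.92 and 8.94 (control) at day 1. Wdr12 read 10.19 and 10.19 (Jmjd2a), 10.16 and 10.24 (Jmjd2c) and 9.51 and 9.33 (control) at day 3, and 9.92 and 10.03 (Jmjd2a), 9.98 and 9.86 (Jmjd2c) and 10.34 and 10.35 (control) at day 1. All 3 were lowest in day 3 controls, and at day 1 the Bop1 arrays overlapped between the Jmjd2c label and control. At day 3 Pes1 rose by 0.47 ± 0.056 with the Jmjd2a label and 0.46 ± 0.056 with the Jmjd2c label (adjusted p = 0.00012 and 0.00015). Bop1 rose by 0.65 ± 0.084 (Jmjd2a) and 0.64 ± 0.084 (Jmjd2c), with an adjusted p of 0.00021 and 0.00029, and Wdr12 by 0.76 ± 0.076 (Jmjd2a) and 0.78 ± 0.076 (Jmjd2c), with an adjusted p of 3.5e-05 and 3.7e-05. At day 1 Pes1 fell by 0.24 with each label (adjusted p = 0.021 and 0.018) and Wdr12 by 0.37 (Jmjd2a) and 0.43 (Jmjd2c) (adjusted p = 0.012 and 0.0036), while Bop1 at -0.14 (Jmjd2a) and -0.06 (Jmjd2c) did not pass (adjusted p = 0.45 and 0.81).

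Grwd1, a histone and ribosomal protein chaperone, had the largest difference of any member at day 3 with all arrays. It read 10.13 and 10.17 (Jmjd2a), 10.04 and 10.18 (Jmjd2c) and 9.10 and 8.59 (control) at day 3, and 9.92 and 9.97 (Jmjd2a), 10.00 and 9.94 (Jmjd2c) and 10.18 and 10.11 (control) at day 1. The 2 control arrays of day 3 lay below all others and apart from each other (SD 0.37, the largest of any member in that group). Grwd1 was 2.47-fold higher with the Jmjd2a label (adjusted p = 2.8e-05) and 2.4-fold higher with the Jmjd2c label (adjusted p = 4.3e-05), and without control replicate 2 the log2 differences were 1.05 (Jmjd2a) and 1.00 (Jmjd2c). Rrp12 was then above it at 1.08 (Jmjd2a) and 1.05 (Jmjd2c), as was Rrs1 at 1.05 for Jmjd2c. Ebna1bp2, an assembly factor, had the smallest p at day 3, with rises of 0.92 ± 0.054 (Jmjd2a) and 0.89 ± 0.054 (Jmjd2c) (adjusted p = 1.4e-06 and 2.2e-06). Nip7, a partner of Nop2 in the particle, rose by 0.74 (Jmjd2a) and 0.72 (Jmjd2c). Rrs1, which brings 5S ribosomal RNA to the particle in yeast, rose by 0.99 (Jmjd2a) and 1.02 (Jmjd2c) at day 3 and fell by 0.38 (Jmjd2a) and 0.51 (Jmjd2c) at day 1.

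The helicases Ddx18 and Ddx56 rose by 0.98 and 1.01 with the Jmjd2a label and by 0.90 and 0.90 with the Jmjd2c label at day 3. Noc2l and Noc3l, which pair in export of the precursor in yeast, rose by 0.76 and 0.89 with the Jmjd2a label and by 0.70 and 0.87 with the Jmjd2c label. Nop16, Nifk, which binds the proliferation antigen Ki-67, and Rrp1b rose by 0.55, 0.60 and 0.73 with the Jmjd2a label and by 0.58, 0.47 and 0.71 with the Jmjd2c label. Wdr74, a WD-repeat factor, had the weakest calls, at 0.40 for Jmjd2a and 0.42 for Jmjd2c (adjusted p = 0.043 and 0.047). Its control arrays of day 3 read 9.49 and 10.00, and without replicate 2 the differences were 0.65 (Jmjd2a) and 0.67 (Jmjd2c).

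Within each label the members stood higher at day 3 than at day 1, by little. All 52 differences were positive for both labels, with medians of 0.19 (Jmjd2a) and 0.16 (Jmjd2c). Of these, 9 passed for Jmjd2a (2.26% of all probe sets were higher, 8.42% of the bright ones) and 12 for Jmjd2c (3.27% higher, 12.5% of the bright ones), and no member was lower past the test. Of all probe sets 3.35% were lower for Jmjd2a and 5.36% for Jmjd2c, and of the bright ones 6.98% and 11%. Noc4l had the largest rise, by 0.43 ± 0.086 for Jmjd2a (adjusted p = 0.012) and 0.39 ± 0.086 for Jmjd2c (adjusted p = 0.014). Polr1b rose by 0.42 (Jmjd2a) and 0.34 (Jmjd2c) and Polr1c by 0.35 (Jmjd2a) and 0.37 (Jmjd2c). Without 1 array the counts ranged from 1 to 25 for Jmjd2a and 1 to 24 for Jmjd2c. The highest counts came without either control array of day 3. The lowest came without Jmjd2a replicate 1 of day 1 or either Jmjd2a array of day 3 for Jmjd2a, and without either Jmjd2c array of day 3 for Jmjd2c. Other arrays that moved the counts by over 1.5 times were the Jmjd2c arrays of day 3 for Jmjd2a (5 each) and both Jmjd2c arrays of day 1 for Jmjd2c (6 without replicate 1 and 4 without replicate 2). Polr1c was the member that passed whichever array was left out.

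The test of the day 3 difference against the day 1 difference compares each label's difference from control between the days. It was past the threshold and positive for 51 of 52 members with the Jmjd2a label (median 0.95) and for 51 with the Jmjd2c label (median 0.96). In that direction 12% of all probe sets passed for Jmjd2a and 10.7% for Jmjd2c, and 35.7% (Jmjd2a) and 34.5% (Jmjd2c) of the bright ones. In the other direction no member passed, where 6.36% (Jmjd2a) and 6.84% (Jmjd2c) of all probe sets did, and 14.2% and 16.0% of the bright ones. Rrp12 had the largest value, 1.56 ± 0.14 for Jmjd2a and 1.60 ± 0.14 for Jmjd2c (adjusted p = 1.9e-05 and 1.3e-05). Without control replicate 2 of day 3, 50 members passed for Jmjd2a and 51 for Jmjd2c, and Rrp12 was at 1.39 (Jmjd2a) and 1.43 (Jmjd2c), below Rrs1 at 1.40 (Jmjd2a) and 1.56 (Jmjd2c). Polr1c, at -0.06 for Jmjd2a (-0.23 to 0.10, adjusted p = 0.64) and -0.04 for Jmjd2c (-0.20 to 0.13, adjusted p = 0.83), did not pass, and its differences from control were negative on both days.

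The labels did not differ from each other past the test in any member. At day 3 the Jmjd2a minus Jmjd2c differences ran from -0.11 to 0.14 with a median of 0.02, and at day 1 from -0.08 to 0.13 with a median of 0.02. The 95% intervals reached from -0.29 to 0.33 at day 3 and from -0.32 to 0.32 at day 1. At an unadjusted p under 0.05, 0 members passed at day 3 and 1 at day 1, the count of adjusted calls was 0 under all settings run, and 0.00% of all probe sets passed on either day. Set against the day 1 controls, the labelled arrays of day 3 were close in level. With the Jmjd2a label 47 of 52 members were below day 1 controls and with the Jmjd2c label 50, by medians of -0.08 and -0.11, and 0 passed for either. Of all probe sets 0.0377% were lower and 0.129% higher past the test for Jmjd2a, and 0.0266% lower and 0.133% higher for Jmjd2c. Of the bright ones 0.0997% were lower and 0.513% higher for Jmjd2a, and 0.0427% lower and 0.484% higher for Jmjd2c. At an unadjusted p under 0.05, 5 members passed for Jmjd2a and 11 for Jmjd2c. With array weights 1 passed for Jmjd2a and 4 for Jmjd2c, and without either control array of day 3 there were 0 for Jmjd2a and 2 for Jmjd2c. The intervals ran from -0.46 to 0.28 for Jmjd2a and from -0.47 to 0.26 for Jmjd2c.

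Other genes of the pathway, from a companion list of 99 of which 97 were measured, are given beside the members. Over all probe sets 13.7% (Jmjd2a) and 9.28% (Jmjd2c) rose at day 3, and 15.4% were lower between days in controls. At day 1, 3.25% (Jmjd2a) and 5.69% (Jmjd2c) fell. Of the 97 genes, 83 rose and 2 fell with the Jmjd2a label at day 3 (median 0.51). With the Jmjd2c label 78 rose and 2 fell (median 0.50). In controls 87 were lower and 2 higher at day 3 than at day 1 (median -0.59). Without control replicate 2 of day 3, 80 rose and 3 fell with the Jmjd2a label, 74 rose and 3 fell with the Jmjd2c label, and 88 were lower and 3 higher between days in controls. At day 1, 24 fell and 1 rose with the Jmjd2a label and 36 fell and 1 rose with the Jmjd2c label. The medians were -0.22 and -0.24, with or without control replicate 2 of day 3. The counts of falls were higher without that array. This comparison does not use it, but its spread enters the estimate pooled over the 6 groups. Ubtf, the activator of ribosomal RNA genes, rose by 0.54 (Jmjd2a) and 0.53 (Jmjd2c) at day 3, and Rrn3, which brings RNA polymerase I to the promoter, by 0.71 (Jmjd2a) and 0.72 (Jmjd2c). The largest falls between days in controls were in Urb1 (-1.49), Tbl3 (-1.37), Dhx37 (-1.33) and Rrp15 (-1.28). Nop53 and Nsa2, both large-subunit factors, went against the list. Nop53 was higher in day 3 than in day 1 controls by 0.47 ± 0.042 (adjusted p = 9.6e-06), and Nsa2 by 0.22 ± 0.053 (adjusted p = 0.0092).

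Ribosomal proteins are what these factors assemble with ribosomal RNA. Over all probe sets 13.7% rose and 7.11% fell with the Jmjd2a label at day 3, and 9.28% and 5.04% with the Jmjd2c label. At day 1, 3.25% (Jmjd2a) and 5.69% (Jmjd2c) fell. Of 41 cytosolic ribosomal protein genes, 5 rose and 1 fell with the Jmjd2a label and 4 rose and 1 fell with the Jmjd2c label at day 3, with medians of 0.02 and 0.01, and the median between days in controls was -0.00. Without control replicate 2 of day 3, 3 rose and 0 fell with each label. Their probe sets had a median signal of 13.85, above the mean signal of each member. The 5 members with a signal of at least 12 (Ncl, Npm1, Fbl, Nhp2 and Emg1) fell between days in controls, by 0.51, 0.20, 0.64, 0.63 and 0.56. Npm1, the brightest at 13.52, fell least. Whether probe sets near 13.85 can show changes of that size was not tested. Of 76 mitochondrial ribosomal protein genes 56 rose and 1 fell with the Jmjd2a label and 52 rose and 1 fell with the Jmjd2c label at day 3 (medians 0.32 and 0.30), and without control replicate 2 the risers numbered 54 for Jmjd2a and 50 for Jmjd2c. Of 20 DNA replication genes 12 rose and 2 fell with the Jmjd2a label and 13 rose and 2 fell with the Jmjd2c label at day 3 (13 and 12 risers without control replicate 2), while at day 1 there were 16 that fell with the Jmjd2a label and 18 with the Jmjd2c label (medians -0.34 and -0.39).

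**Figure D4:**
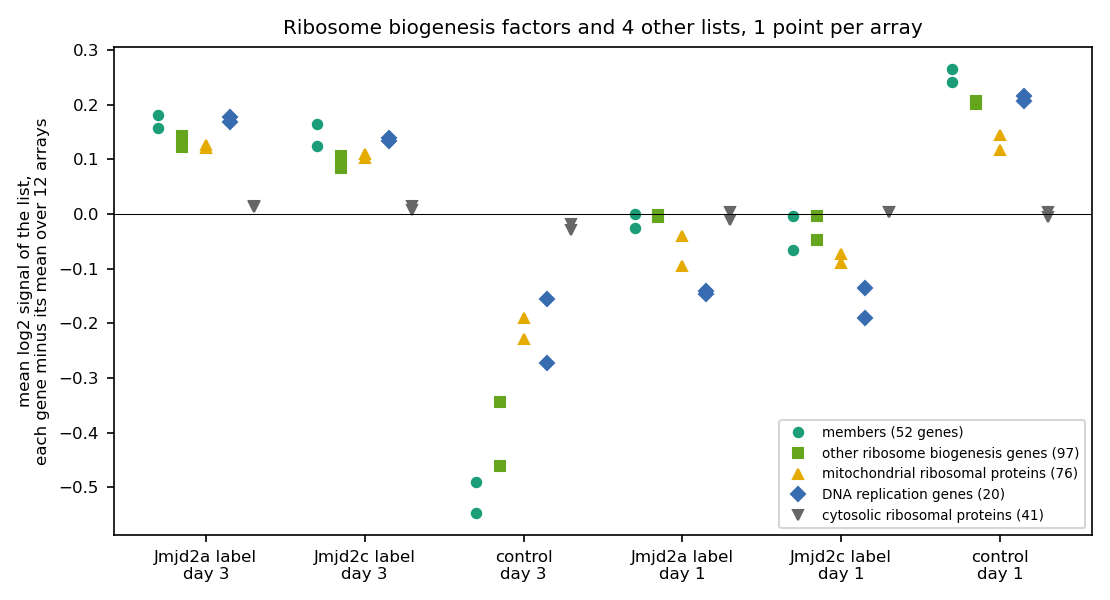
Mean log2 signal of 5 gene lists on each array (1 point per array), each gene minus its mean over 12 arrays, by group. The members reach -0.49 and -0.55 in day 3 controls and 0.24 and 0.27 in day 1 controls, and the cytosolic ribosomal proteins stay near 0 in all groups.

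The members' other probe sets and nearest patterns were also examined. For 33 members 50 further probe sets exist, and between days in controls 48 of them had the sign of the brightest one, with 41 lower and 1 higher past the test (median -0.70). At day 3, 40 rose and 1 fell with the Jmjd2a label and 36 rose and 1 fell with the Jmjd2c label. Outside the members and the companion list, the genes whose signal was most like the members' mean over the 12 arrays were Psme3 (Pearson r 0.997), Hspd1 (0.996), Exosc2 (0.996), Naa25 (0.995) and Timp1 (0.995). These arrays share samples and groups, so the values are descriptive. Across the 52 members the mean signal had a Pearson r with the day 3 difference of -0.31 (Jmjd2a) and -0.29 (Jmjd2c).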

How the data were processed

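Splenic B cells were profiled on 12 arrays, 2 in each of 6 groups. The authors deposited log2 signals per probe set, which were used as deposited. Their normalization is not given in the sources used. Precision is limited by the 2 arrays a group. Tests ran on 45037 of 45101 probe sets, without the 64 that serve as array controls. The platform annotation gave 34945 of these 1 gene, 932 several and 9160 none, and only probe sets of 1 gene were named. The brightest such probe set stood for each gene.

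All 12 arrays were fitted to 6 group means with limma 3.58.1 (R 4.3.3; empirical Bayes with an intensity trend). Benjamini-Hochberg adjustment ran over all probe sets tested, and an adjusted p under 0.05 was a call. The code was tested on simulated data. Tables and plots used Python 3.11.15, pandas 2.3.3 and matplotlib 3.10.9. The members and all gene lists were chosen with earlier results of these data known. All members could be named, with values on every array for a fixed set and for the largest changes. Alternatives were 2 other scalings, bright probe sets only, no trend, array weights, the mean of a gene's probe sets, arrays of 1 day, a replicate block and leaving out each array. Replicate numbers were not taken as pairs, since deviations of same-numbered arrays correlated above 0.1 in 1 of 15 pairs of groups. That pair was Jmjd2a and Jmjd2c at day 1, and whether their replicates share an origin was not tested.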

Additional observations from a re-analysis of the deposited data

Results flagged for a closer look

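The difference between label and control at day 3 was set against that at day 1 in the fit over all arrays, a test of the difference itself. It passed, with a positive value, for 51 of 52 members with the Jmjd2a label and for 51 with the Jmjd2c label. Both labels share the control arrays of each day, so these are not separate results. Among the 7023 probe sets at least as bright as the dimmest member, 35.7% (Jmjd2a) and 34.5% (Jmjd2c) also passed with a positive value. With a negative value 14.2% (Jmjd2a) and 16% (Jmjd2c) of them passed. A positive difference was therefore not limited to the members. In Ncl the day 3 difference exceeded the day 1 difference by 0.605 (Jmjd2a) and 0.618 (Jmjd2c) on the log2 scale, with a limma adjusted p of 9.1e-06 and 6.8e-06. Npm1 gave 0.306 (Jmjd2a) and 0.387 (Jmjd2c), with an adjusted p of 0.001 and 0.00019. Fbl gave 0.717 (Jmjd2a) and 0.753 (Jmjd2c), with an adjusted p of 0.00016 and 0.00011. Rrp12 gave 1.561 (Jmjd2a) and 1.6 (Jmjd2c), with an adjusted p of 1.9e-05 and 1.3e-05. In these 4 genes the controls were highest of the 6 groups at day 1 and lowest at day 3, by group means, except Npm1, whose lowest mean was with the Jmjd2c label at day 1. No group held enough arrays to test for a single array that stands apart.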

How the results depend on the processing

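No named difference that passed the test changed sign under any setting run. The counts at day 3, between days in controls and for label by day moved by less than 1.5 times under every setting. The other counts depended on the variance model and on single arrays, and the cause was not tested. Without the intensity trend the members that passed numbered 7 for Jmjd2a and 13 for Jmjd2c against control at day 1 (26 and 33 as reported). For day 3 against day 1 within a label they numbered 3 for Jmjd2a and 2 for Jmjd2c (9 and 12 as reported). With array weights 42 passed for Jmjd2a at day 1, 21 for Jmjd2a and 25 for Jmjd2c between days, and 1 for Jmjd2a and 4 for Jmjd2c of day 3 against day 1 controls (0 as reported). With bright probe sets only, 14 passed for Jmjd2a between days.

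With each array left out in turn, 2 to 43 passed for Jmjd2a and 13 to 46 for Jmjd2c against control at day 1. Between days it was 1 to 25 for Jmjd2a and 1 to 24 for Jmjd2c. For Jmjd2c at day 3 against day 1 controls it was 0 to 2. A group left with 1 array added nothing to the pooled spread and was assumed to vary like the others.

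The replicate block gave 27 (Jmjd2a) and 33 (Jmjd2c) at day 1, 52 for each at day 3, 52 for controls between days, 9 (Jmjd2a) and 11 (Jmjd2c) between days within a label and 51 for each label by day. It moved no count by over 1.5 times. Correlations of same-numbered deviations ran from -0.111 to 0.092 in 14 of 15 pairs of groups. They reached 0.392 in the other, Jmjd2a with Jmjd2c at day 1.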
